A study of Drosophila melanogaster with 2 samples.

Results

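Binding of the tagged Ribbon protein was described around 6 genes known from the formation of the hindgut and the Malpighian tubules of *Drosophila melanogaster*: byn, bowl, drm, lin, cad and ct. They were taken by name from textbook roles, out of 13968 protein-coding genes, with earlier results of these data known. For each, the gene body and 20 kb on either side were searched for peak summits. Chromatin immunoprecipitation with sequencing (ChIP-seq) was done on embryos, taken whole at an age of 0 to 24 h, of a fly line in which an insertion gives rib fused to eGFP. The labels describe the antibody as one against GFP, while their antibody entry gives rib. The only group had 2 biological replicates, and no untagged or input sample is among the data analysed here. Whether the flies kept an untagged copy of rib is not given in the sources used here, and in whole embryos a peak cannot be placed in hindgut or tubule cells.

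The hindgut and the Malpighian tubules, the excretory organ of the fly, are epithelial tubes that grow out of the posterior end of the embryo. byn encodes a T-box factor and cad a homeodomain factor that act early in the hindgut primordium, and ct encodes a homeodomain factor needed for tubule fate. drm, lin and bowl form a relay that patterns the hindgut and other epithelia: Lines lowers the activity of the zinc finger protein Bowl, and Drumstick binds Lines and frees Bowl. Ribbon, a nuclear protein with a BTB domain, is needed for both tubes to take their normal shape.

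The series list held 4606 peaks past an irreproducible discovery rate (IDR) of 0.01, with a median signal of 93.2 in the peak caller's own unit. The own list of replicate 1 held 3082 peaks and that of replicate 2 held 2181. Longer ranked lists, which include regions under the threshold, held 108141 regions in the series, 96716 in replicate 1 and 95994 in replicate 2. Read counts are not in these lists, so depth is unknown, and with 1 group no test of a difference was possible. The values are therefore descriptions, set beside the same measure over all genes or all peaks.

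Of the 6 genes, 1, bowl, had a summit within 500 bp of an annotated transcription start site (TSS), against 18.2% of all protein-coding genes, a share at which a count of 1 in 6 is near the background. In replicate 1's own list the count was 2, bowl and lin, against 13.0% of all genes. The lin call came from a peak that in the series lay in the 5′ UTR of Pgi, 90 bp from a Pgi start. In replicate 2's list the count was 1, bowl again, against 10.7%. The wider windows held 23 summits, of which 3 lay around bowl, 4 around lin, 10 around cad, 6 around ct, and 0 around byn and drm. A summit in the window was thus found for 4 of 6 genes, against 73.1% of all genes, again near the background. Inside the gene body a summit was found for 2, bowl and ct, against 13.4%. The same 2 genes were the nearest gene to at least 1 summit, against 19.5%.

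**Figure D1:**
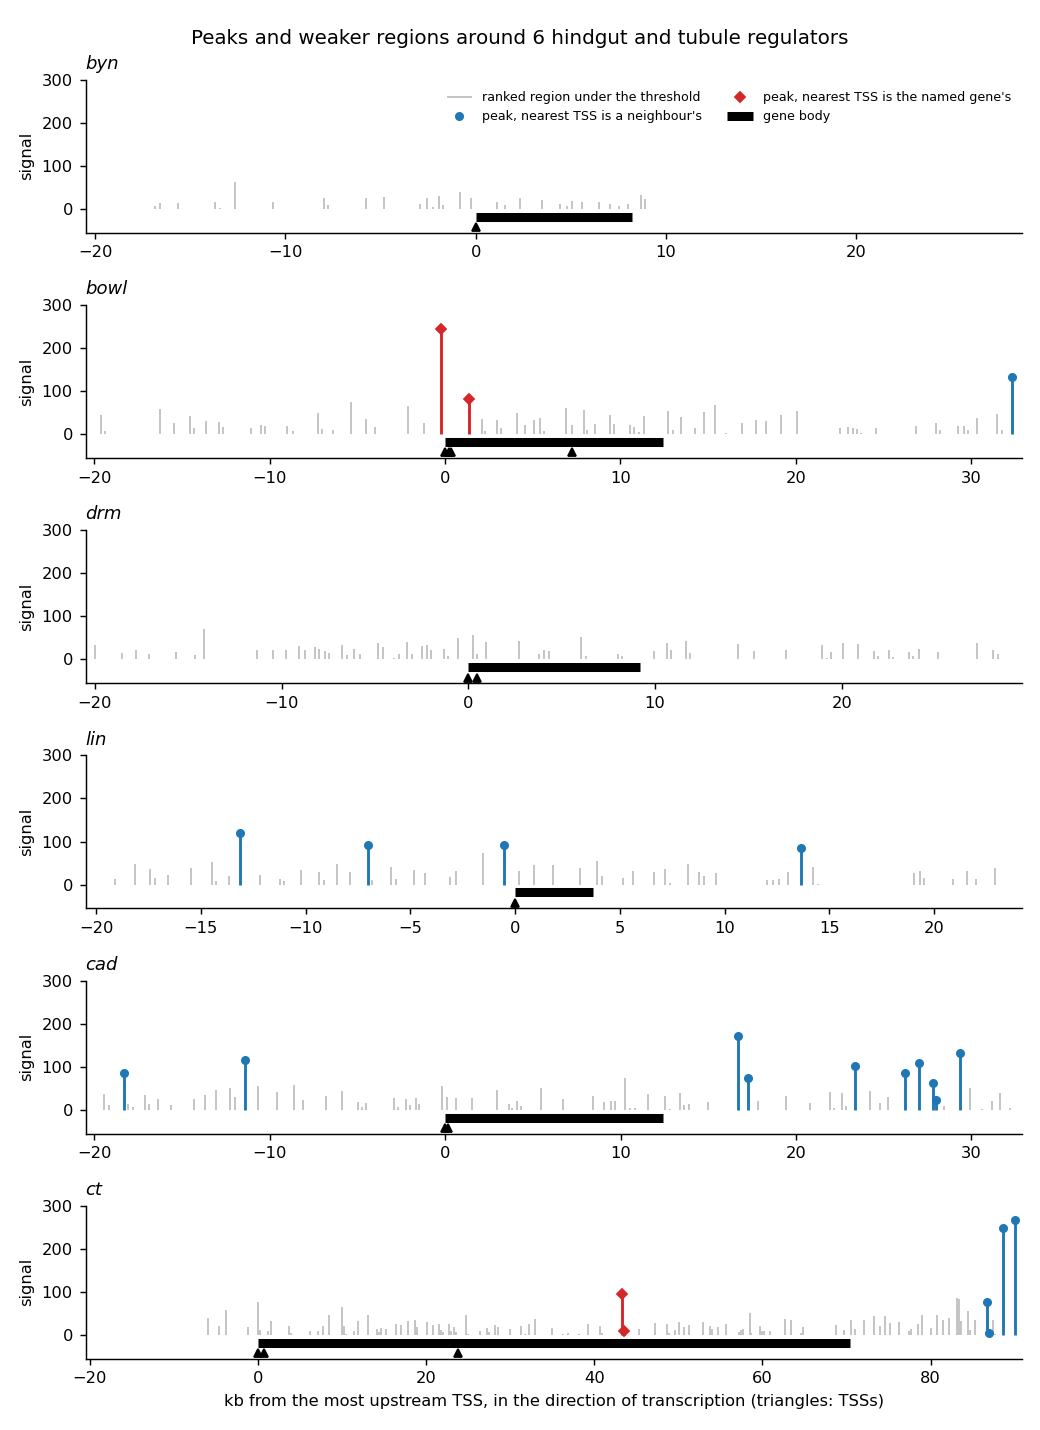
Signal of each summit in the peak caller's unit (vertical axis) against kb from the most upstream TSS of each gene, with 1 panel a gene. Coloured markers are peaks past the threshold, grey lines ranked regions under it, black bars gene bodies and triangles TSSs; only bowl and ct have peaks nearest to their own start, and byn and drm have none.

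bowl, the odd-skipped family zinc finger gene at the end of the relay, had its strongest peak immediately before its start. The gene lies on the plus strand at chr2L:3771700-3784121 (dm6, Release 6) with 4 annotated TSSs. The summit fell 212 bp upstream of the first TSS, and 432, 538 and 7450 bp upstream of the others. Its signal was 244 in the series list, rank 271 of 4606. It was 120.1 in replicate 1 and 119.8 in replicate 2, both past the threshold in their own lists, with summits 183 and 188 bp upstream of a TSS. Both replicates thus place a strong peak at nearly the same base. The 101 bases around the series summit, read from the RefSeq Release 6 genome on the plus strand at chr2L:3771438-3771538, are shown because this is the peak at a start of the relay's effector. Here and below, capitals mark any match to 8 short motifs that are described with the shared features, and this window holds none:
bowl start peak: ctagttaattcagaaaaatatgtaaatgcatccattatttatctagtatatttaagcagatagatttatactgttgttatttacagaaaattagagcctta
The window is rich in A and T, with a GC content of 23.8%, and 3.71% of all series summits had a lower one.

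A second bowl peak lay in the intron 1061 bp after a TSS, with a signal of 81.0. It had 49.9 in replicate 1, where it passed the threshold, and 27.7 in replicate 2, where it did not. The third summit of the window, 25085 bp after a bowl TSS, lay in an intron of Reph, 478 bp from the start of Reph, with a signal of 132. It passed in both replicates, at 85.6 in replicate 1 and 52.6 in replicate 2. The conservative list of the series added a peak of signal 75.7 at the start of CG43707, 5368 bp upstream of bowl. Within the gene, ranked regions under the threshold also lay near the last TSS, the strongest at 60.3 and 326 bp upstream of it, with 30.0 in replicate 1 and 35.0 in replicate 2.

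drm, the gene for the small zinc finger protein that binds Lines, had no summit past the threshold in its window. It lies on the plus strand at chr2L:3539247-3548423 with 2 TSSs. Its nearest summit, 41336 bp downstream, lay 300 bp upstream of sob, another odd-skipped family gene, and 84.8% of all genes had a summit nearer than that. Weaker regions were not lacking: 67 ranked regions lay in the window, or 13.6 per 10 kb, against a median of 11.9 over all genes. The highest, with a signal of 69.6, lay 14 bp upstream of the neighbour CG8852. At the drm start itself a region 235 bp upstream of the second TSS had 57.6 in the series, 36.1 in replicate 1 and 15.6 in replicate 2. Another, 543 bp upstream of the first TSS, had 49.4 in the series, 20.6 in replicate 1 and 40.5 in replicate 2. The replicates thus differed in which of these regions was the higher. Their scores, which rescale the IDR and pass at 830, were 677 and 763. Both windows are shown as the drm sequences closest to passing, at chr2L:3539448-3539548 and chr2L:3538654-3538754 on the plus strand, with an ETS match in capitals in the first and a GAGA match in the second:
drm region at the second start: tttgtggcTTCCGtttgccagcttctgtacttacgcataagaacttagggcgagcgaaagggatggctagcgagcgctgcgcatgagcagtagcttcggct
drm region before the first start: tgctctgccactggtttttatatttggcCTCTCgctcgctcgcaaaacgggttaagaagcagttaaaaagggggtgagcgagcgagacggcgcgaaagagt

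lin, the gene of the protein that lowers Bowl activity, had 4 summits around it and none in its body. It lies on the plus strand of arm 2R at 8914524-8918234 with 1 TSS. The nearest summit fell 548 bp upstream of lin, but in the 5′ UTR of Pgi, the gene of a glycolytic enzyme, 90 bp from the nearest start of Pgi. Its signal was 92.8 in the series, 59.9 in replicate 1 and 24.3 in replicate 2. It passed in replicate 1 alone, where the summit lay 470 bp from the lin TSS, so that lin counts as bound in that list but not in the series list. The conservative list lacked it. The other 3 summits lay at starts of other genes. Ggamma1, a G protein subunit gene, had a summit 2 bp from its start with a signal of 119, and with 62.8 in replicate 1 and 63.2 in replicate 2. CG30349 had one of 91.0 at 13 bp and PAN2, the gene of a deadenylase subunit, one of 86.0 at 24 bp. The CG30349 summit passed in neither replicate's own list and the PAN2 summit in replicate 2's alone. Close to the lin start itself, 199 bp into the gene, the series ranked list held a region of only 32.1.

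byn, the Brachyury-type T-box gene of the hindgut, had the most distant nearest summit of the 6. It lies on the plus strand at chr3L:11927693-11935919, within an intron of CG44837, with 1 TSS. The nearest summit was 76623 bp downstream with a signal of 60.4, and 93.3% of all genes had a nearer one. Its window held 32 ranked regions, or 6.64 per 10 kb, and 19.9% of genes had a lower density. In the series ranked list these ended 8.88 kb after the TSS, although the window ran to 28.2 kb. The highest had a signal of 63.0 and lay 12669 bp upstream, with 23.0 in replicate 1 and 24.9 in replicate 2. The highest within 1000 bp of the TSS lay 817 bp upstream with 39.1 in the series, 15.0 in replicate 1 and 24.5 in replicate 2. Their scores of 364 and 241 were far under the 830 that passes.

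cad, the caudal-type homeodomain gene of the posterior embryo, had the most summits of the 6 in its series-list window, yet 0 in its body and 0 nearest to it. The gene lies on the plus strand at chr2L:20770731-20783135 with 2 TSSs. Its 10 summits came to 1.91 per 10 kb, against a median of 0.451 over all genes, and 98.2% of genes had a lower density. The count was 8 in the conservative list, equal to that of ct, 5 in replicate 1's own list and 3 in replicate 2's, again equal to that of ct. In the replicates' lists 91.5% and 85.3% of genes had a lower density than cad. Of the 10 series summits, those 27625 and 27832 bp after a TSS lie in overlapping peaks, so both stand for 1 region. The nearest summit of the series list, 11430 bp upstream, lay in an intron of dia, the gene of a formin that builds actin filaments, with a signal of 116, and with 45.1 in replicate 1 and 52.7 in replicate 2. The strongest, 16516 bp downstream of a cad TSS, lay 246 bp upstream of Pomp, the gene of a proteasome assembly factor. It had 171 in the series, 102 in replicate 1 and 66.6 in replicate 2, and passed in both. The others lay at or near Ns4, Pomp, vari and CG9328, with signals between 23.3 and 132. vari, the gene of a septate junction protein, had summits 52 and 109 bp from a start, with 102 and 84.9. The first passed in replicate 1's own list alone and the second in neither replicate's. At the cad start itself, 178 bp upstream of a TSS, the ranked region had 55.7 in the series, 24.9 in replicate 1 and 19.3 in replicate 2. A ranked region in a cad intron, 10098 bp after a TSS, came closer to passing, with 74.1 and a score of 776. The sequence of the strongest summit, chr2L:20787360-20787460 on the plus strand, is shown because that peak leads the window while lying at another gene, and it holds none of the motifs:
peak near cad at Pomp: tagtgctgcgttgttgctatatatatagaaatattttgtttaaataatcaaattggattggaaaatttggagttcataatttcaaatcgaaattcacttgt

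ct, the homeodomain gene of tubule fate, carried the other summits assigned to a member. It spans 70432 bp on the plus strand at chrX:7608428-7678859, with 3 TSSs. A summit in its intron, 19555 bp after the last TSS, had 94.4 in the series, 45.0 in replicate 1 and 49.0 in replicate 2. It passed in replicate 2 alone. A listed peak of 9.68 overlaps it, so both stand for 1 region. The strongest summits of the window belonged by position to the neighbour CHES-1-like, a forkhead family gene: they lay in its intron, 1 at 384 bp and another at 1734 bp upstream of the nearest of its starts. The nearer had 248 in the series, 143 in replicate 1 and 104 in replicate 2. The farther had 267 in the series, 158 in replicate 1 and 101 in replicate 2, and ranked 221 of 4606. Both passed in both replicates. Another summit of that gene, with an overlapping peak of 4.25, had 75.8, and the conservative list added peaks of 86.0 and 84.0 in its intron. At the first ct start, 35 bp into the 5′ UTR, a region of 76.2 missed the threshold with a score of 828, against 830, and had 45.7 in replicate 1 and 26.0 in replicate 2. The intronic summit is shown as the peak inside ct, with a forkhead match in capitals, and the summits before CHES-1-like as the strongest of all 6 windows, at chrX:7651727-7651827, chrX:7697038-7697138 and chrX:7698388-7698488 on the plus strand:
peak in the ct intron: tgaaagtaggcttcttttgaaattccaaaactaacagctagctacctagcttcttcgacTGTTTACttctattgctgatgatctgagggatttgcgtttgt
nearer peak before CHES-1-like: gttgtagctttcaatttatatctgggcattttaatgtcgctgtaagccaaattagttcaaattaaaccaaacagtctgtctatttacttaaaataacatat
farther peak before CHES-1-like: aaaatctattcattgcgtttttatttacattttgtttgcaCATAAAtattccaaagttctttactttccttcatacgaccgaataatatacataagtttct
The farther one holds a Caudal match, read on the other strand. Here and below, a peak before CHES-1-like is one inside its intron and upstream of a start of that gene.

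**Figure D2:**
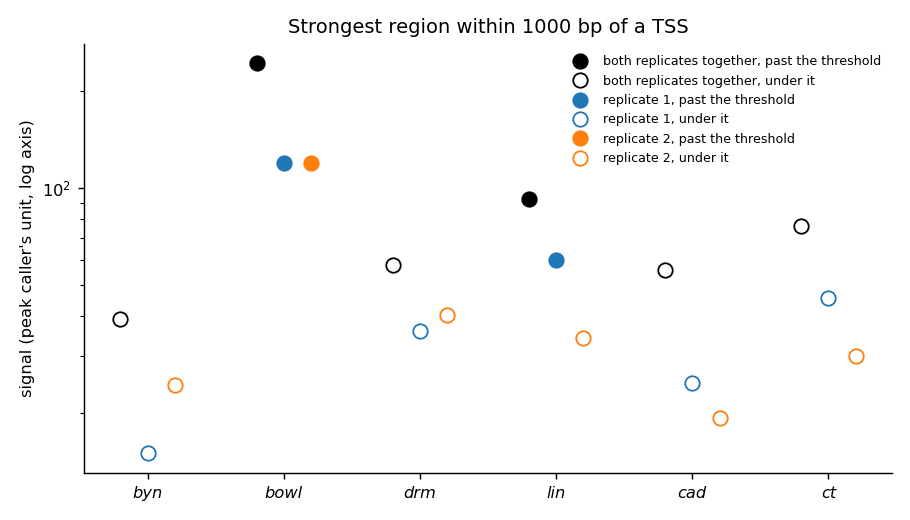
Signal of the strongest region within 1000 bp of a TSS of each gene, on a log axis in the peak caller's unit, in the series ranked list and in each replicate's. Filled circles passed the threshold and open ones did not. bowl stands highest in all 3 lists, at 244 in the series, and byn had the lowest series value, at 39.1. For lin, the circles of the series and replicate 1 are the peak near a start of Pgi.

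With the threshold loosened to a score of 540, an IDR of 0.05, 3 of the 6 genes had a ranked region within 500 bp of a TSS: bowl, ct and drm. By the same rule 27.2% of all genes had one. The setting was chosen after the data were seen. byn, cad and lin stayed without such a region.

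**Figure D3:**
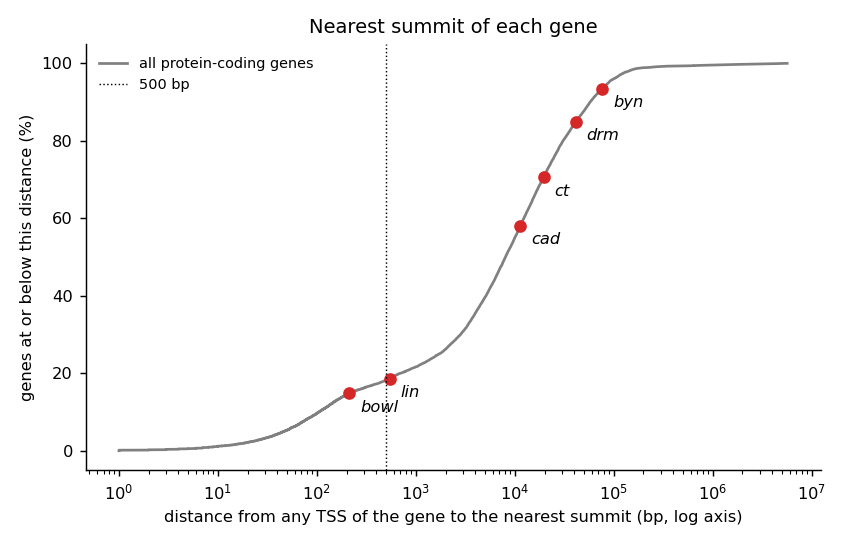
Share of all protein-coding genes (vertical axis, percent) whose nearest summit lies within a given distance of any of their TSSs (horizontal axis, bp, log scale), with the 6 genes as red points and 500 bp as the dotted line. bowl lies at 212 bp and lin at 548 bp, cad at 11430 and ct at 19555 bp, and drm at 41336 and byn at 76623 bp; the median gene lies at 8065 bp.

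Most of the peaks around these genes lay closer to other genes. Of the 23 summits, 4 were nearest to the named gene itself and 19 to 11 neighbours. Of those 19, 14 lay within 500 bp of the neighbour's start, and 10 of the 11 neighbours had such a peak. Over all protein-coding genes, 13.9% of the pairs of a gene and a summit in its window had that gene as the nearest, beside 17.4% in the windows of the 6. By annotation, 12 summits lay in introns, 5 in 5′ UTRs, 1 in a coding exon and 5 between genes. The share within 500 bp of any protein-coding TSS was 65.2% (15 of 23, exact 95% binomial interval 42.7 to 83.6%), beside 52.0% of all series peaks, which lies inside that interval. Of the 23, 6 overlap another listed peak, and merging leaves 20. The summits are thus not independent, and the interval, which treats them as such, is a rough guide only.

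The replicates differed in the peaks they held. Of the 23 summits, 7 (30.4%, interval 13.2 to 52.9%) lay in a peak of both replicates' own lists, 5 in replicate 1's alone, 4 in replicate 2's alone and 7 in neither. Over all 4606 series peaks the share in both was 34.3%, inside that interval. The interval treats the summits as independent, which they are not: they cluster, and 6 overlap another listed peak. Both peaks of each overlapping pair fell in the same class, so those regions count more than once. The 7 were the bowl start peak, the peaks at Reph, Ggamma1 and Pomp, the summit farthest downstream of cad, and both strong peaks before CHES-1-like. Signal was higher in replicate 1 by a median of 0.62 on the log2 scale over the 23, beside 0.48 over the series peaks found in both ranked lists. The bowl start peak was nearly equal, at 0.00, while the overlapping pair 27625 and 27832 bp after a cad TSS stood farthest out, at 2.10 and 2.18, with 50.6 in replicate 1 and 11.8 and 11.2 in replicate 2. That pair was absent from the conservative list, which held 20 of the 23.

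**Figure D4:**
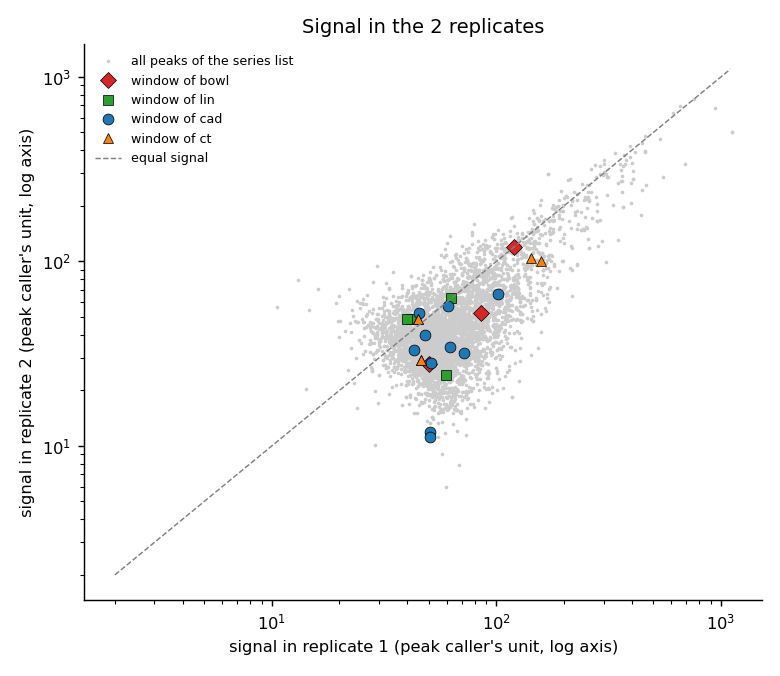
Signal of each series peak in replicate 2 (vertical) against replicate 1 (horizontal), on log axes in the peak caller's unit, with the peaks around bowl, lin, cad and ct marked and all other peaks in grey. Most marked peaks fall on the side of replicate 1; the bowl start peak lies on the dashed line of equal signal, at 120.1 and 119.8.

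The strongest peaks of these windows, those with a signal of 150 or more, shared a low GC content. In the 101 bases around the summit, GC was 23.8% at the bowl start, 25.7% at Pomp, and 28.7% and 25.7% at the nearer and farther peak before CHES-1-like. The peaks next in signal were mixed. GC was 45.5% at Reph, 33.7% at the summit farthest downstream of cad, 53.5% at Ggamma1 and 30.7% in the dia intron. The median over all series summits was 44.6%, with quartiles at 35.6 and 51.5%. Strong peaks were AT-rich in the series at large as well: GC had a median of 36.6% in the 852 peaks with a signal of 150 or more and 45.5% in the 3754 weaker ones, a limit set after the data were seen. The stronger peaks were also more often listed narrower than 380 bp, at 53.3% against 0.906%, and the bowl peak was 140 bp wide, those before CHES-1-like 190 and 183 bp, and that at Pomp 380 bp. Whether width, base composition or another property of strong peaks underlies this was not tested.

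The 8 motifs, searched on both strands within 50 bp of the summit, were GAGAG of the GAGA factor, CAGGTA of Zelda, TTTATG of Caudal, GGTGTGA of the T-box class that holds byn, TATCGATA of DREF, CAGCTG of E-box proteins, CGGAA of ETS factors and TGTTTAC of forkhead factors. At least 1 lay at 13 of the 23 summits (56.5%), beside 45.4% of all series summits. GAGAG lay at 6 (26.1%), beside 19.2%, CGGAA at 3 (13.0%), beside 14.5%, and TTTATG at 2 (8.70%), beside 8.42%. TGTTTAC lay at 2 (8.70%), beside 3.23%. The Zelda motif, the T-box motif and the E-box lay at 1 each (4.35%), beside 1.82, 0.912 and 5.23%, and the DREF motif at 0, beside 1.80%. With 23 summits, 1 match more or less moves a share by 4.35 percentage points.

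Of 30 other genes of hindgut and tubule formation, listed by role, 16 had a summit within 500 bp of a TSS. By the same rule 1 of the 6 and 18.2% of all genes had one, and the difference between the lists was not tested. Both lists were chosen with earlier results of these data known, so these counts are descriptions only. rib is the tagged gene and had the strongest such peak, at 1049 and 193 bp upstream, and 15 of 29 remain without it. The count leaned on replicate 1: its own list gave 15 of 30, against 13.0% of all genes. The list of replicate 2 gave 4 (13.3%), rib, fkh, Stat92E and spi, near the 10.7% of all genes in that list. The median number of TSSs per gene was 1 among the 30 other regulators, 2 among the 6 and 1 over all protein-coding genes. Counting the most upstream TSS alone gave 10 of 30, against 16.0% of all genes, and the stronger 50% of peaks gave 9, against 11.5%.

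Among transcription factors of that list, fkh, the forkhead gene of the gut ends, had 215 at 225 bp upstream. otp, a hindgut homeobox gene, had 153 at 232 bp upstream, and pnt, the ETS factor downstream of the EGF receptor, 135 at 277 bp upstream. Stat92E, the factor of the JAK/STAT pathway, had 108 at 343 bp into the gene. The zinc finger genes tsh, sob and tio had 79.9, 78.9 and 68.4. Among signals and receptors, wg had 105, hh 94.7, the receptors N 85.0 and Egfr 84.0, and the EGF ligand spi 77.8, with a stronger peak of 317 at 542 bp. Among genes of cell shape and adhesion, raw had 178 at 54 bp, sns 98.4 and zip, the myosin heavy chain gene, 83.7. Among peaks within 500 bp of a TSS, the bowl start peak, at 244, was thus above all of these except that of rib. Of the other regulators with such a peak, fkh, Stat92E, spi and rib had a summit within 500 bp of a TSS in both replicates' own lists. The rule takes any TSS of the gene, so the replicate summit need not be in the series peak named here. N and sns had such a summit in neither, and the rest in replicate 1's list alone. Strong peaks within 20 kb but nearest to other genes lay near otp (233, at Cib2), raw (198, at Hnf4) and hbs (187, at CG7639).

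**Figure D5:**
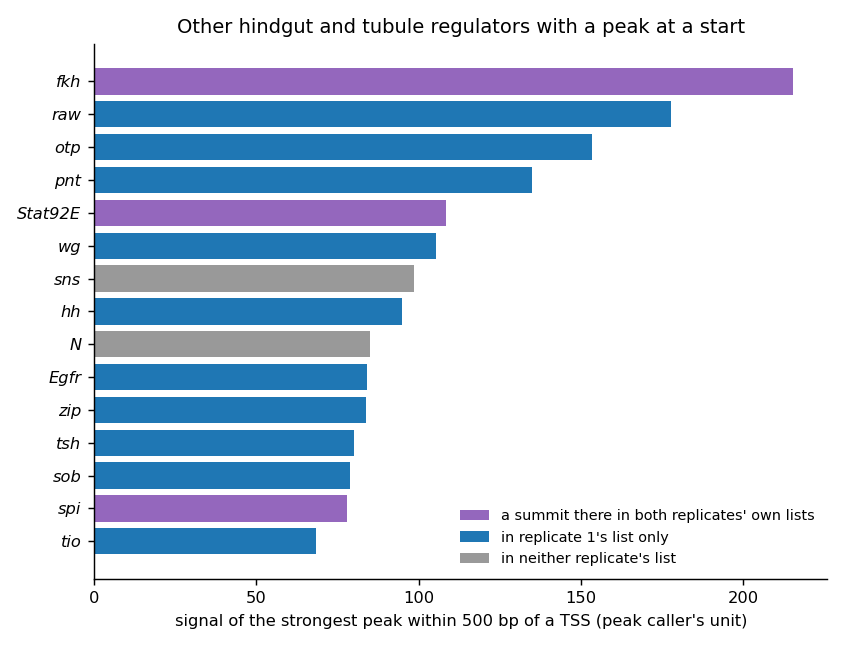
Signal of the strongest peak within 500 bp of a TSS (horizontal axis, peak caller's unit) for the 15 other regulators that have one, rib left out. Colour shows which replicate lists hold a summit within 500 bp of any TSS of the gene, not necessarily in the same peak. fkh leads at 215 and tio is lowest at 68.4. By that rule fkh, Stat92E and spi have a summit in both replicates' lists.

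A summit in the gene body or within 20 kb was found for 23 of the 30 (76.7%), near the 73.1% of all genes. It was not found for tll, en, Kr, rho, sc, ac and l(1)sc, as for byn and drm. en had a summit within 500 bp in replicate 1's own list and in the conservative list, but none in the series list. odd, the founder of the family of bowl, drm and sob, had its nearest summit 5174 bp upstream, with 81.1.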

How the data were processed

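ChIP-seq of rib-eGFP from whole embryos was analysed from the peak lists that the authors deposited for 2 biological replicates, as the labels call them, and for the series, on dm6 per the labels. How reads were aligned and peaks called is not given in the sources used here. Signal, as deposited by the authors, is the peak caller's measure of strength, with no scaling stated. The score in the deposited lists is the irreproducible discovery rate (IDR) rescaled to whole numbers: 830 stands for an IDR of 0.01 and 540 for 0.05. The deposited ranked lists also give the global IDR as −log10, used to read the score. They further hold 16 columns of per-replicate values of the series lists that were not used. No read counts are given, so depth is unknown. Binomial intervals cover the counting of peaks only, as if peaks were independent.

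Summits were assigned to all TSSs of protein-coding genes of Ensembl release 115 (BDGP6.54), and sequence was read from the RefSeq Release 6 genome. A peak counted as shared from 1 bp of overlap, and positions count from 1. Python 3.11.15, numpy 2.4.6, scipy 1.17.1, pandas 2.3.3, pysam 0.24.0 and matplotlib 3.10.9 were used, and the steps were tested on simulated placements. No test was run, since there is 1 group and no counts. The genes, lists and motifs were chosen with earlier results of these data known. Named were the 6 genes, the gene nearest to each of their summits, the other regulators with a summit within 500 bp of a TSS, and up to 6 with the strongest summit within 20 kb. The other genes with values, sob and odd as relatives and CG8852, CG43707 and CG44837 as neighbours among them, were named after their values were seen. So were the genes of the list with no summit within 20 kb. Of 31 other regulators listed, 1 was not matched in the annotation and is not used here. Alternatives were other peak lists, each replicate alone, other windows, starts and overlaps.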

Additional observations from a re-analysis of the deposited data

How the results depend on the processing

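Of 38 alternatives to the main counts, 23 stayed within 1.5 times the value given and 15 did not. The count of the 6 genes with a summit within 500 bp of a TSS, 1, was 0 within 200 bp, 2 within 1000 bp, 3 at a score of 540, and 1 to 2 with either replicate left out. The count of other regulators, 16, was 7 within 200 bp, 9 with the stronger 50% of peaks, 10 with the most upstream start alone, and 4 to 15 with either replicate left out: 4 is the count without replicate 1. For the windows of 200 and 1000 bp the share of all genes was not computed. The counts at these windows thus have no background beside them and cannot be read as high or low. The 4 genes with a summit within 20 kb became 2 in the gene body alone. The 23 summits became 11 with the stronger 50% of peaks, 9 within 10 kb, 3 in gene bodies, and 10 to 12 with either replicate left out. The 7 summits shared by both replicates became 23 with the ranked lists, which hold weaker regions. Nearly all series peaks are shared by that rule, 4579 of 4606, so the 23 say little about these windows. The score of 540, the count without rib and the merging of peaks were chosen after seeing the data. No paired analysis was possible because there is 1 group. With no read counts, no control and 2 replicates, a start without a peak past the threshold is a start where none was listed, not one shown to be free of Ribbon.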
